A study of Drosophila melanogaster with 6 samples.

Results

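The 7 ecdysone response genes *EcR*, *br*, *Eip74EF*, *Eip75B*, *Eip78C*, *ftz-f1* and *Eip93F* were followed through maps of chromosome folding in eye and antennal discs of *Drosophila melanogaster*. They are a list of named genes, chosen by their known role and not by any value measured here, and make up 7 of 17684 annotated genes and of 13922 protein-coding genes on the chromosome arms. The maps came from Hi-C, a method that ligates and sequences DNA ends lying close together in the nucleus. Eye discs and antennal discs, the joined larval primordia of the compound eye and of the antenna, were dissected apart from third-instar larvae of genotype yw;+;+, with 125 discs of either kind in each replicate. All libraries shared that genotype and stage and had no treatment, and each pools many animals and all cell types of a disc. The eye disc was represented by libraries 1, 2 and 3 and the antennal disc by libraries 2 and 3, besides a list the authors made from all replicates of each tissue; antennal disc library 1 was not analysed here.

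Ecdysone is the steroid hormone that drives moulting and metamorphosis. Its active form, 20-hydroxyecdysone, binds a heterodimer of the nuclear receptors EcR and Usp, which switches on early genes such as *br*, *Eip74EF* and *Eip75B*. The early gene products, most of them transcription factors, then act on later genes, and the pulses late in the third instar start the change from larva to pupa. In the eye disc, ecdysone signalling is known to be needed for the advance of the morphogenetic furrow.

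The deposited values were positions of topologically associating domains (TADs), intervals within which chromosomal contacts are more frequent than across their edges. A border is a point where a TAD starts or ends, and positions come in bins of 5 kb, so a shift of 1 bin is the smallest that can be seen. Positions are given on dm6, gene extents are those of RefSeq for Release 6, the assembly of dm6, and left and right follow the coordinates. The gene table held neither strand nor exons, so whether a border lies in an exon or an intron, or near which of a gene's promoters, is not given here. Neither expression nor hormone level was measured.

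The libraries held 1116 to 1188 TADs in the eye disc and 1186 to 1217 in the antennal disc, with no depth or score in the files. Eye disc library 1 stood apart from the others: on average 51.0% of its borders had a partner within 1 bin in another library, against 56.1% to 64.6% for the other 4 libraries. It and antennal disc library 3 also held no TAD on chromosome 4, where none of the 7 genes lies. Its values are given below beside those of the other libraries, and differences between the discs that it moves are also given without it. With 3 against 2 libraries, the two-sided exact permutation p used here, which doubles the smaller tail, cannot fall below 0.2, and without eye disc library 1 it cannot fall below 0.333, so no difference between the discs can pass a threshold here. Nothing in the labels says whether the replicates came from separate crosses or days, so the spread may be technical.

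Of the 7 genes, 4 were cut by a TAD border in every library, *br* was cut in 4 of 5 libraries, and *Eip93F* and *ftz-f1* lay whole within 1 TAD in every library. A border inside in every library was found in 1.32% of 13672 protein-coding genes and in 10.4% of the 974 that are 20 kb or longer. When borders within 1 bin of a gene end were left out, 3 of the 7 genes remained cut in every library. *EcR* did not, because its border in eye disc library 1 lies 4.09 kb from its right end. The shares of 1.32% and 10.4% include such borders and were not recomputed without them. The 7 genes are long, from 39.9 kb for *Eip78C* to 113.7 kb for *Eip75B*, so the long genes are the nearer comparison.

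*EcR*, the gene of the hormone receptor, lies on 2R from 6087873 to 6169087. A border cut its right part in all 5 libraries, at 6165, 6155 and 6155 kb in eye disc libraries 1, 2 and 3 and at 6155 and 6160 kb in antennal disc libraries 2 and 3. Both pooled lists placed it at 6155 kb. The positions of the discs overlapped and all 5 lay within 10 kb, so between 82.7% and 95.0% of the gene belonged to the TAD on the left. The cut falls in a run of tRNA genes: 13 tRNA genes lie within the extent of *EcR*. In eye disc libraries 2 and 3 and both antennal libraries, 5 of them were left of the border and 8 right of it. In eye disc library 1, 11 were left and 2 right.

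The left end of *EcR* differed more between libraries than this cut. The host TAD, the TAD that holds the largest part of the gene, began at 5970, 6080 and 6070 kb in eye disc libraries 1, 2 and 3 and at 6085 kb in both antennal libraries. The left gene end was 77.1, 7.87 and 17.9 kb from the nearest border in the eye disc, against 2.87 kb in both antennal libraries. Every eye library was thus above every antennal library, by 31.4 kb in the mean (two-sided exact permutation p = 0.2) and by 10 kb without eye disc library 1 (exact permutation p = 0.333). In eye disc library 1 the border nearest to the left gene end was the cut inside *EcR* at 6165 kb, not the left edge. The difference of 31.4 kb thus does not describe the left edge alone. *Ars2*, which encodes an RNA-processing factor and ends 2.25 kb from *EcR*, lay whole in the host TAD of *EcR* in the 3 eye libraries and was cut by its border in both antennal libraries. *Ars2* ends at 6085625, less than 1 bin past the antennal border at 6085 kb. That border is 1 bin from the edge of eye disc library 2 at 6080 kb, the smallest shift that can be seen. The host TAD held 17, 2 and 5 whole protein-coding genes in the eye disc and 1 in each antennal library, which was *CG14589*, a gene nested in *EcR*. Fewer genes in the host TAD in the antennal disc, with library ranges apart, was seen for 10.3% of protein-coding genes and, of the 7, for *EcR* alone. For eye disc library 2, with 2 genes against 1, this rests on the 1-bin shift at *Ars2*. The pooled eye list put the left edge at 5985 kb and the pooled antennal list at 6085 kb. On the right, *Cyp6w1*, a cytochrome P450 gene 4.60 kb away, lay outside the host TAD in all 5 libraries.

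*br*, the Broad gene, encodes a family of BTB zinc finger transcription factors, among the earliest targets of the receptor, and lies on X from 1575132 to 1664869. Its border moved between libraries. It lay at 1630 kb in eye disc library 1, at 1645 kb in eye disc library 3 and at 1650 kb in both antennal libraries, whereas in eye disc library 2 the border at 1665 kb fell 0.131 kb beyond the right end and left the gene whole. The eye positions thus spanned 35 kb, and the position shared by both antennal libraries lay within that span. The pooled eye list followed eye disc library 2 with a border at 1665 kb, and the pooled antennal list had 1650 kb. The pooled antennal list began the host TAD at 1565 kb, whereas antennal disc libraries 2 and 3 began it at 1460 and 1465 kb. The right end of *br* is followed after 0.183 kb by *dor*, which encodes a subunit of a vesicle-tethering complex of the lysosomal pathway. *dor* lay outside the host TAD of *br* in all 5 libraries. On the left, *inc*, 57.5 kb away, lay whole in the host TAD in 4 libraries and outside it in eye disc library 1 and in the pooled antennal list. The annotated gene *Mur2B*, a mucin-related gene from 1523554 to 1668788, contains the whole of *br*, so every border inside *br* is also inside *Mur2B*.

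*Eip74EF*, an early gene that encodes ETS-domain transcription factors, lies on 3L from 17558672 to 17619325. Outside eye disc library 1 its borders did not move. In eye disc libraries 2 and 3, both antennal libraries and both pooled lists they lay at exactly 17560 and 17600 kb. The left one is 1.33 kb inside the left gene end, closer than a bin, so it may equally mark the gap of 0.884 kb to *CycT*, the gene of cyclin T. The right one cuts the gene 19.3 kb from its right end. A TAD of 40 kb between them held 65.9% of the gene and no whole protein-coding gene. Eye disc library 1 lacked the left border and had the right one at 17595 kb, so that there *Eip74EF* shared a TAD of 170 kb with 25 whole genes. *CycT* was in the host TAD in eye disc library 1 alone, and *Vps60*, a gene of the endosomal sorting machinery 0.798 kb to the right, in none of the 5 libraries.

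*Eip75B*, the longest gene of the set, encodes nuclear receptors that bind haem and repress transcription, and lies on 3L from 17950953 to 18064696. All 5 libraries divided it in 3. The left cut lay at 17965 kb in the 3 eye libraries, and at 17965 and 17970 kb in antennal disc libraries 2 and 3. The right cut lay at 17990, 18025 and 18020 kb in eye disc libraries 1, 2 and 3, and at 18020 kb in both antennal libraries. Outside eye disc library 1, both cuts thus stayed within 1 bin across the discs. In those 4 libraries a TAD of 50 to 60 kb held the middle 44.0% to 52.8% of the gene and no whole protein-coding gene. Parts of 12.4% to 16.7% on the left and 34.9% to 39.3% on the right belonged to the adjoining TADs. The nested genes *CG32192* and *CG42393* were right of the right cut in every library. Its nearest neighbours, *CG5290* at 38.4 kb on the left and *CG44006* at 4.03 kb on the right, lay outside the host TAD in those 4 libraries.

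*Eip78C* encodes a nuclear receptor related to that of *Eip75B*, and lies on 3L from 21226609 to 21266503. It was cut at exactly 21245 kb, near its middle, in eye disc libraries 2 and 3, both antennal libraries and both pooled lists. In eye disc library 1 the cut lay at 21260 kb, 15 kb to the right. The part right of the cut and the gene *CG9391*, 0.177 kb beyond the right end, shared a TAD in all 5 libraries. This was the host TAD in the 4 libraries that agree on the cut. In eye disc library 1 it ran from 21260 to 21360 kb and held only 16.3% of the gene. That TAD also held *Edg78E*, a gene named for its dependence on ecdysone, and the cuticle protein genes *Cpr78Ca*, *Cpr78Cb* and *Cpr78Cc*. It was 85 and 125 kb wide in eye disc libraries 2 and 3 and 120 and 240 kb in antennal disc libraries 2 and 3, so its far end moved more than the cut. *Edg78E* and the 3 cuticle genes were chosen after their positions were seen.

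**Figure D1:**
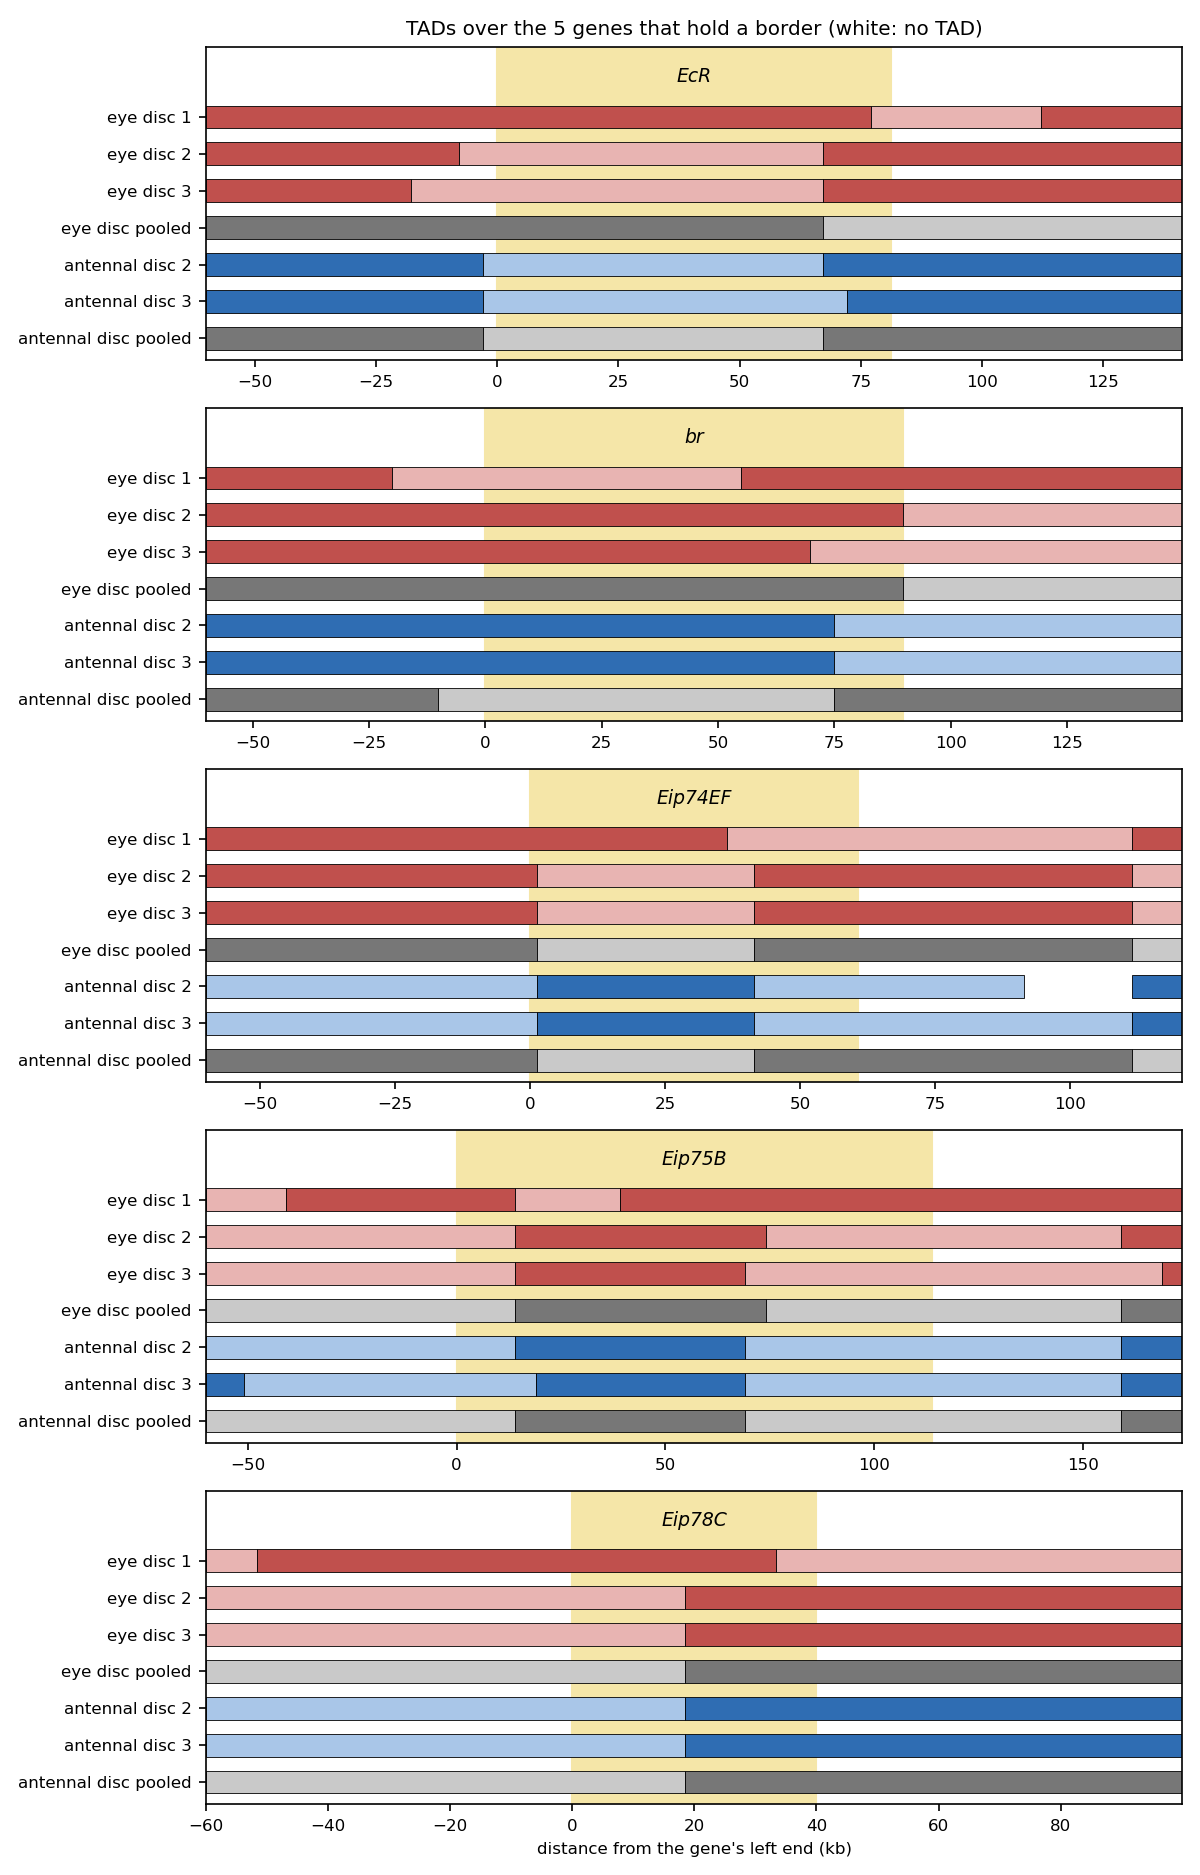
TADs over *EcR*, *br*, *Eip74EF*, *Eip75B* and *Eip78C*. Each row is a library or a pooled list (red, eye disc; blue, antennal disc; grey, pooled lists), neighbouring TADs alternate in shade, the yellow band is the gene, and the x axis is the distance from its left end in kb. Outside eye disc library 1, the cuts inside *Eip74EF*, *Eip75B* and *Eip78C* stay within 1 bin across the discs. That library lacks the left cut of *Eip74EF* and departs by more than 1 bin at the right cut of *Eip75B* and the cut of *Eip78C*.

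*ftz-f1* encodes a nuclear receptor that makes prepupal tissues able to respond to the next ecdysone pulse, and lies on 3L from 18750607 to 18801309. It lay whole in 1 TAD in every library. The host TAD ran from 18745 to 18820, 18740 to 18825 and 18740 to 18825 kb in eye disc libraries 1, 2 and 3, and from 18745 to 18820 and 18745 to 18825 kb in antennal disc libraries 2 and 3. Each edge thus stayed within 1 bin in all 5 libraries. The width averaged 81.7 ± 5.77 kb over eye libraries (SD, n = 3) and 77.5 ± 3.54 kb over antennal libraries (SD, n = 2), with two-sided exact permutation p = 0.6. *Atg3*, an autophagy gene 0.124 kb to the left, *Nufip* and *MED11*, a subunit gene of the Mediator complex, shared the TAD in all 5 libraries.

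Beside *ftz-f1* lay a border that followed the tissue. The TAD to its left began at 18685 kb in all 3 eye libraries and at 18625 kb in both antennal libraries. It was 60, 55 and 55 kb wide in eye disc libraries 1, 2 and 3 and 120 kb in both antennal libraries, a difference of −63.3 kb with two-sided exact permutation p = 0.2, the smallest this design allows. The pooled lists, which are made from the replicates and so are not independent of them, gave 60 kb for eye discs and 120 kb for antennal discs. The eye border falls at *Cyp12c1*, a cytochrome P450 gene, within 1 bin of *Chmp1* and *Sgf11*. Of 2345 border sites in the whole data set, 1.71% were held by all 3 eye libraries and no antennal one, and 3.37% by both antennal libraries and no eye one. This site was singled out after its values were seen.

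*Eip93F* encodes a transcription factor that acts late in metamorphosis, in the death of larval tissues and in the adult programme, and lies on 3R from 21949114 to 22014539. No library had a border inside it. Its TAD began at 21865 kb in eye disc library 1 and at 21860 kb in the other 4, and contained 17 other protein-coding genes in every library, the nearest being *Qsox2* and *Qsox3*, sulfhydryl oxidase genes left of it, *CG6678*, *CG43844* and *dnd*.

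The right edge of this TAD lay nearer to *Eip93F* in eye disc libraries 2 and 3. It was at 22060, 22020 and 22015 kb in eye disc libraries 1, 2 and 3 and at 22040 kb in both antennal libraries. The right gene end was therefore 45.5, 5.46 and 0.461 kb from a border in the eye disc, against 25.5 kb in both antennal libraries. The ranges overlapped because of eye disc library 1, with a mean difference of −8.33 kb and two-sided exact permutation p = 0.8. Without it the difference was −22.5 kb (exact permutation p = 0.333). The left gene end was 84.1, 70.9 and 65.9 kb from a border in eye disc libraries 1, 2 and 3, against 89.1 kb in both antennal libraries, with every eye library lower (exact permutation p = 0.2). In eye disc libraries 2 and 3 the border nearest to that end was the right edge, across the gene. In eye disc library 1 it was the left edge at 21865 kb, 1 bin from the antennal edge at 21860 kb. The separation at the left end thus combines different borders. The host TAD ended at 22020 kb in the pooled eye list and at 22040 kb in the pooled antennal list.

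The edge decided which neighbours shared the TAD. It held 30, 20 and 18 whole protein-coding genes in eye disc libraries 1, 2 and 3 and 30 in both antennal libraries, *Eip93F* included. The 10 genes from *Mitofilin* to *pit* and *Fadd* were inside in both antennal libraries and eye disc library 1, and not in eye disc libraries 2 and 3. They include *Mitofilin*, *mRpL35*, *Cchl* and *ND-42*, which act in the inner membrane, the ribosome, cytochrome c maturation and complex I of mitochondria, and *Fadd*, an adaptor of immune and death signalling; these were named after their positions were seen. *Theg*, 0.158 kb from *Eip93F*, was cut by the border of eye disc library 3 and whole in the TAD in the other 4 libraries. Without eye disc library 1, fewer genes in the host TAD in the eye disc, with ranges apart, was seen for 9.58% of protein-coding genes, against 5.61% over all 5 libraries, where none of the 7 genes did. In eye disc library 2 and in the pooled eye list, the stretch from 22020 to 22040 kb belonged to no TAD. Both thus also had a border at 22040 kb, the position of the edge in both antennal libraries.

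**Figure D2:**
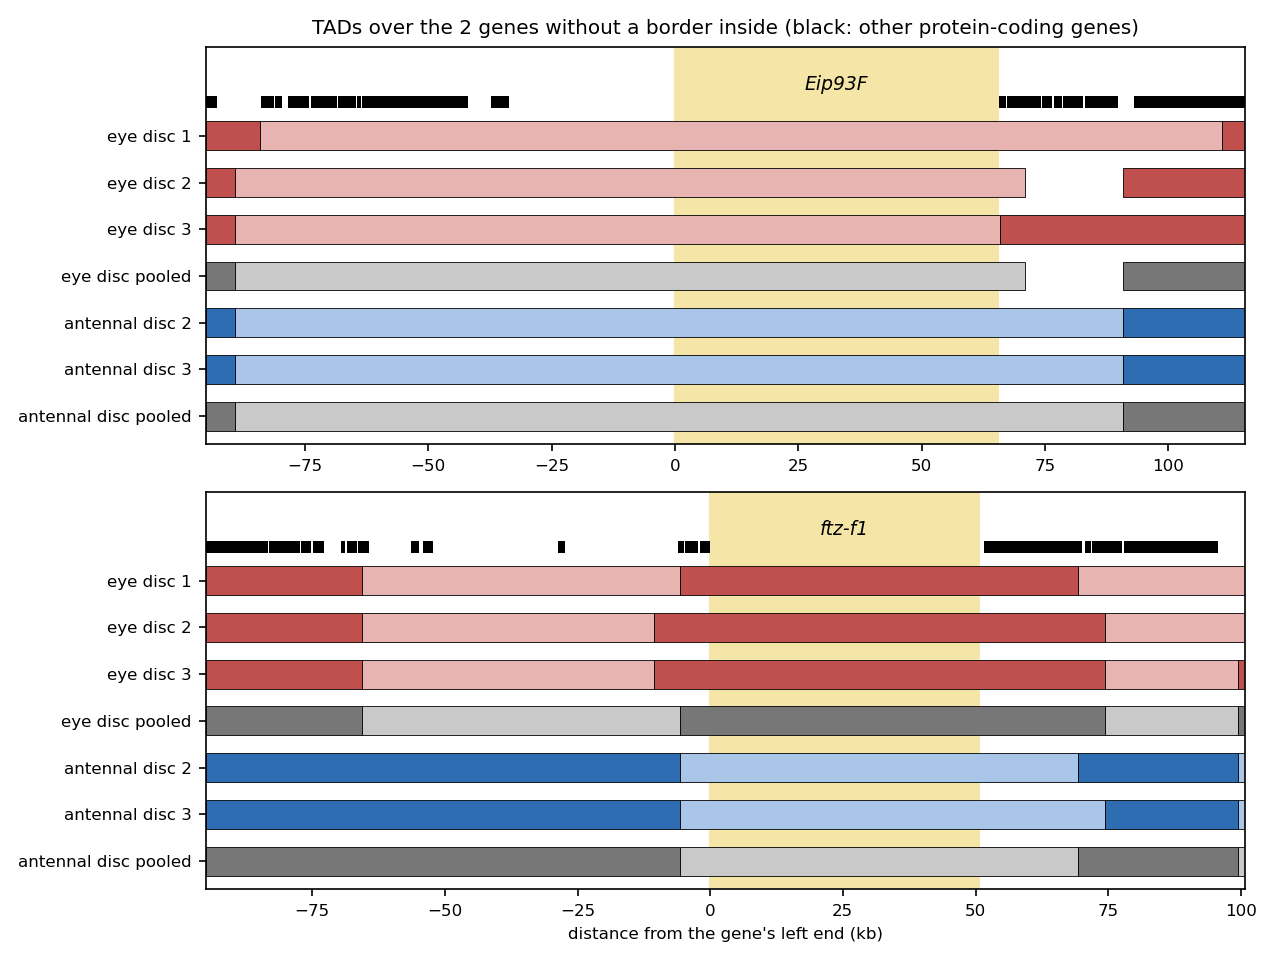
TADs over *Eip93F* and *ftz-f1*, drawn as for the cut genes; black marks are other protein-coding genes, white stretches within a row belong to no TAD, and the x axis is the distance from the gene's left end in kb. The right edge of the *Eip93F* TAD lay at 22020 and 22015 kb in eye disc libraries 2 and 3 and at 22040 kb in both antennal libraries, and the TAD left of *ftz-f1* was 55 to 60 kb wide in eye libraries and 120 kb in antennal libraries.

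Borders inside the genes were about as many in the discs. The 7 genes together held 6, 6 and 7 borders in eye disc libraries 1, 2 and 3 and 7 in each antennal library. Over their summed length this was 1.20 to 1.40 borders per 100 kb of gene, against 0.549 to 0.706 for protein-coding genes of 20 kb or longer and 0.821 to 1.02 for all protein-coding genes. In 4 libraries the counts include the left border of *Eip74EF*, 1.33 kb inside the gene end and so closer than a bin. Borders this close to a gene end were counted for the other genes too. No gene of the 7 had a number of borders inside that kept the discs apart, which 0.497% of protein-coding genes did with fewer in the eye disc and 0.205% with fewer in the antennal disc. The number was the same in all 5 libraries for *EcR*, *Eip75B*, *Eip78C*, *Eip93F* and *ftz-f1*. It was lower in 1 eye library each for *br* (0 in eye disc library 2, 1 elsewhere) and *Eip74EF* (1 in eye disc library 1, 2 elsewhere), both with two-sided exact permutation p = 1.

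Longer genes held a border more often in these data, so the genes were set beside others of their own length. Between 80 and 160 kb, 25.7% of 109 protein-coding genes had a border inside in every library; *EcR* and *Eip75B* did and *br* did not. Between 40 and 80 kb the share was 10.2% of 314 genes; *Eip74EF* did, and *Eip93F* and *ftz-f1* did not. Between 20 and 40 kb it was 6.53% of 536 genes, with *Eip78C* among them. A further count asked that the cuts of all 5 libraries form 1 site, a chain of positions in which each lies at most 1 bin from the next. *EcR*, *Eip74EF* and *Eip75B* met it, against 0.987% of all protein-coding genes and 6.16% of those of 20 kb or longer. The share was 11.9% between 80 and 160 kb, the class of *EcR* and *Eip75B*, and 5.41% between 40 and 80 kb, the class of *Eip74EF*. The chain of *EcR* spans 10 kb and is closed only by antennal disc library 3 at 6160 kb, so eye disc library 1 lies more than 1 bin from the other 3 libraries. Lying in 1 TAD in every library, as *Eip93F* and *ftz-f1* did, was the case for 49.7% of the long genes and 86.8% of all protein-coding genes.

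**Figure D3:**
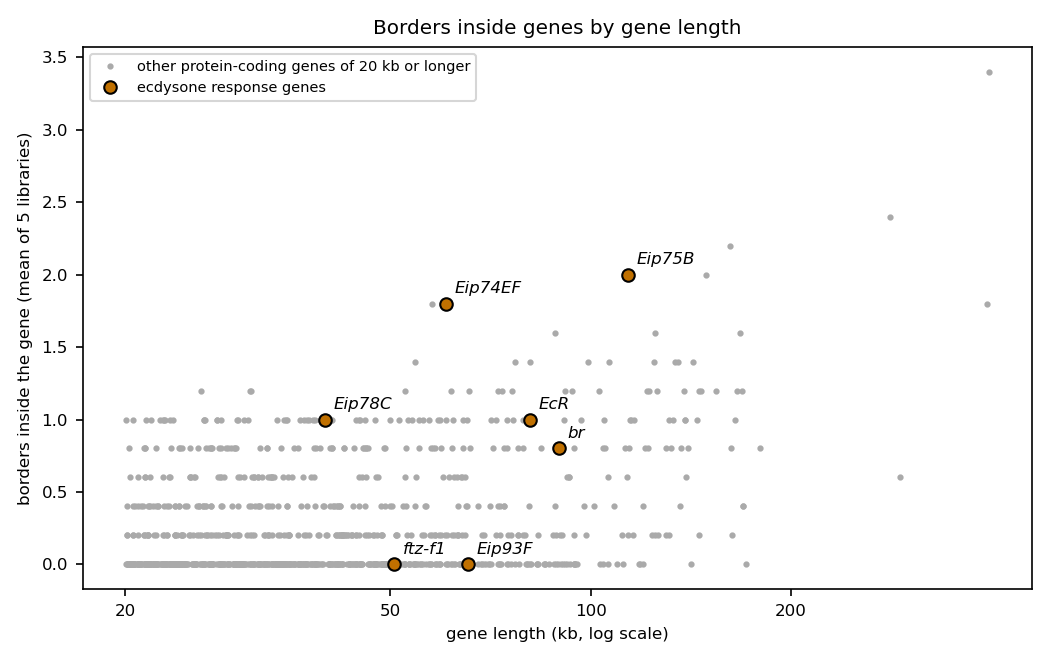
Borders inside each protein-coding gene of 20 kb or longer (y axis, mean of 5 libraries) against gene length in kb (x axis, log scale); grey, other genes; orange, the 7 ecdysone response genes. *Eip75B* held 2 borders on average where genes of 80 to 160 kb averaged 0.569, *Eip74EF* held 1.8 where genes of 40 to 80 kb averaged 0.299, and *ftz-f1* and *Eip93F* held none. The 1.8 of *Eip74EF* counts a border that lies 1.33 kb inside its left end in 4 libraries, closer than a bin.

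The distance of each gene to its nearest border was measured from both ends and averaged. Where the border inside a gene is the nearest to both of its ends, this mean does not depend on where the border lies, as for *Eip78C*, which had 19.9 kb in all 5 libraries. The same holds for *EcR* and *Eip74EF* in eye disc library 1, and for *br* in eye disc library 3 and both antennal libraries. *EcR* was the only gene of the 7 whose libraries kept the discs apart, with 40.6, 11.0 and 16.0 kb in eye disc libraries 1, 2 and 3 and 8.48 and 5.98 kb in antennal disc libraries 2 and 3. The mean was 22.5 ± 15.9 kb for eye libraries (SD, n = 3) and 7.23 ± 1.77 kb for antennal libraries (SD, n = 2), a difference of 15.3 kb with two-sided exact permutation p = 0.2. Without eye disc library 1 the difference was 6.25 kb (exact permutation p = 0.333), with the ranges still apart. Nearer borders with ranges apart were seen for 5.14% of protein-coding genes in the eye disc and for 7.43% in the antennal disc, so counts of 0 of 7 in the eye disc and 1 of 7 in the antennal disc give no sign of a difference from the background.

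The other genes gave overlapping ranges. *br* had 27.5, 45.0 and 44.9 kb in eye disc libraries 1, 2 and 3 and 44.9 kb in both antennal libraries. *Eip74EF* had 30.3 kb in eye disc library 1, whereas the other 4 libraries had 10.3 kb each. *Eip75B* had 44.4, 26.9 and 29.4 kb in eye libraries, against 29.4 and 31.9 kb in antennal ones. For these 3 genes eye disc library 1 held the extreme value, high in *Eip74EF* and *Eip75B* and low in *br*. *Eip93F* had 64.8, 38.2 and 33.2 kb in eye libraries, against 57.3 kb in both antennal libraries. *ftz-f1* had 12.1, 17.1 and 17.1 kb in eye libraries, against 12.1 and 14.6 kb in antennal ones. Without eye disc library 1 the ranges came apart for these last genes, *Eip93F* nearer to a border in the eye disc by 21.6 kb and *ftz-f1* in the antennal disc by 3.75 kb (exact permutation p = 0.333 each), where 9.03% and 14.3% of protein-coding genes did so in the same direction. The host TAD was then also narrower for *Eip93F* in the eye disc and for *ftz-f1* in the antennal disc, as for 11.7% and 22% of protein-coding genes. Fewer genes in the host TAD in the antennal disc were then seen for *EcR* and *ftz-f1*, as for 19.8%.

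**Figure D4:**
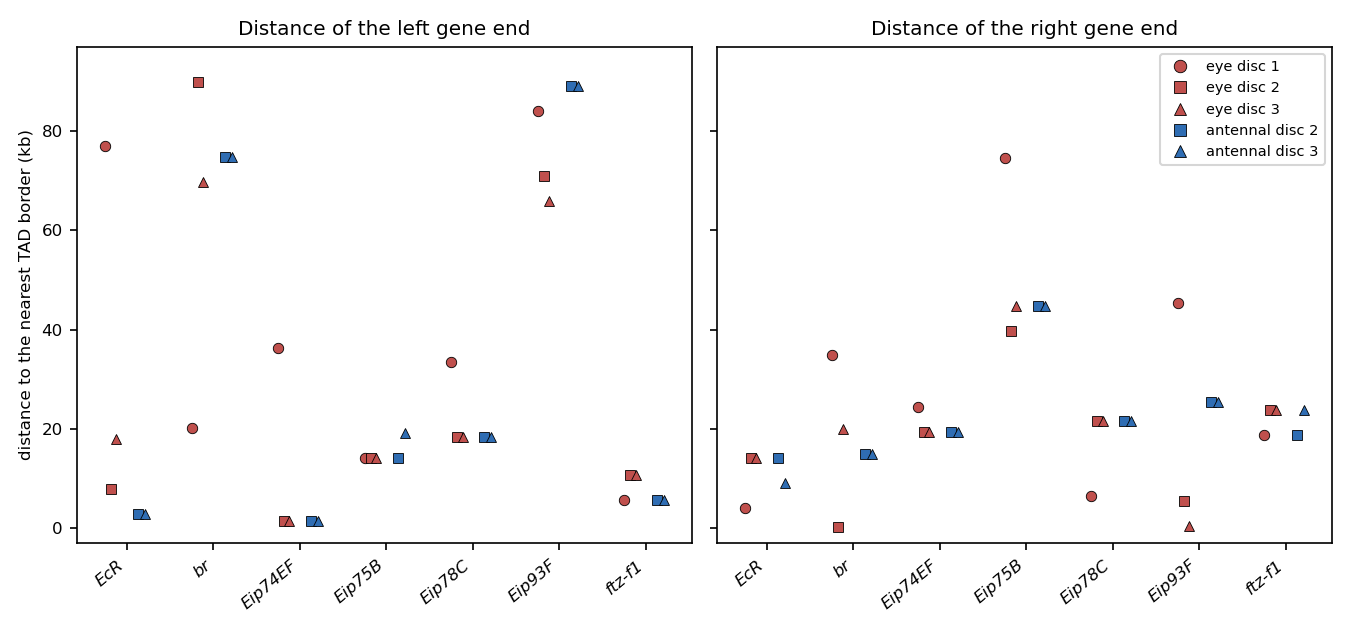
Distance in kb from the left end (left panel) and the right end (right panel) of each gene to the nearest TAD border; red, eye disc libraries; blue, antennal disc libraries; circles, squares and triangles are libraries 1, 2 and 3. At the left end of *EcR* the eye libraries lay at 7.87 to 77.1 kb, all above the antennal libraries at 2.87 kb, and eye disc library 1 is the highest of the 5. In that library the nearest border is the cut inside the gene.

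On 3L, 3 of the 7 genes and 3 other genes of the pathway follow one another within 1314 kb: *Oatp74D*, the gene of an importer that carries ecdysone into cells, *Eip74EF*, *Eip75B*, the cell death genes *hid* and *rpr*, which ecdysone induces in dying larval tissues, and *ftz-f1*. This stretch was chosen after the positions were seen. It held 12 borders in each eye library and 13 in each antennal library, at 21 sites, of which 7 were in all 5 libraries and 9 in a single library; over the whole data set 19.5% of sites were in all 5. Between *Eip74EF* and *Eip75B* lay 4, 3 and 3 borders in the eye disc and 4 and 3 in the antennal disc, so they did not share a TAD in any library. Their gap of 331.6 kb is well above the median TAD width, which was 90 to 100 kb in the libraries.

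*hid* and *rpr*, 211.9 kb apart, shared a TAD in all 3 eye libraries and in neither antennal library. That TAD was 305, 350 and 340 kb wide in eye disc libraries 1, 2 and 3 and ended at 18460 kb. In the antennal disc a border between them lay at 18285 kb in library 2 and 18320 kb in library 3, 35 kb apart, so the antennal libraries had a border each but not at 1 site. *hid* was in TADs of 175 and 210 kb and *rpr* in TADs of 180 and 140 kb there (two-sided exact permutation p = 0.2 for either gene's host width). The pooled antennal list had no border between them and gave 350 kb, as did the pooled eye list. *Oatp74D* was in TADs of 170, 135 and 135 kb in eye libraries, against 85 kb in both antennal libraries, which began at 17475 kb (exact permutation p = 0.2). The pooled antennal list again went with the eye disc, the pooled eye list having 140 kb and the pooled antennal list 135 kb. It is made from all antennal replicates, library 1 included.

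**Figure D5:**
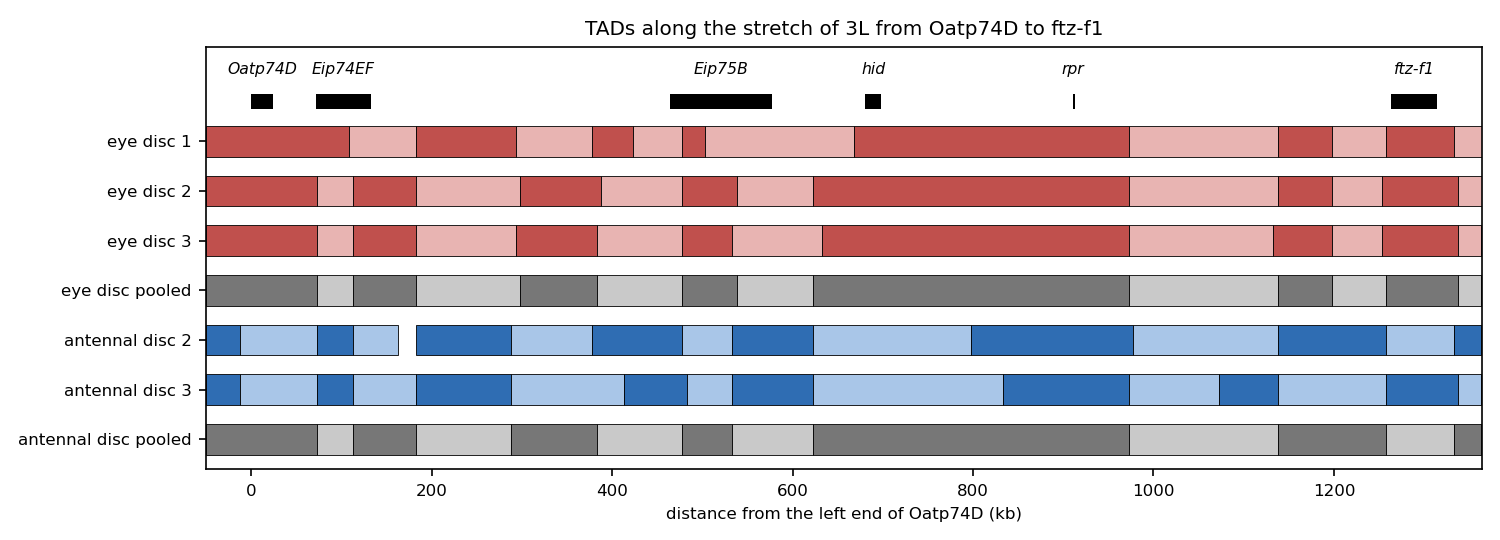
TADs along 3L from *Oatp74D* to *ftz-f1*, with the genes in black on top; rows and colours are as for the cut genes, and the x axis is the distance from the left end of *Oatp74D* in kb. *hid* and *rpr* lie in 1 TAD in the 3 eye libraries and both pooled lists, and in separate TADs in antennal disc libraries 2 and 3.

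A list of 37 other genes of the pathway was followed in the same way, covering cofactors of the receptor, later nuclear receptors, enzymes of hormone synthesis and breakdown, the hormone importer, upstream peptide signals and target genes. All 37 were found, 3 of them under a newer symbol or a locus tag, and 35 had a host TAD in every library. Of these 35, 28 lay in 1 TAD in every library, beside 86.8% of all protein-coding genes and 49.7% of those of 20 kb or longer. None of all 37 had a border inside in every library, beside 1.32% and 10.4%. Of the 37, 13 are 20 kb or longer, so a count of 0 is near the background. The median gene of the 35 was 24.6 kb from a border, against 25.1 kb for all protein-coding genes and 19.9 kb for the 7. The nearest were *ImpE3*, an ecdysone-inducible gene of discs, with 16.0, 1.00 and 1.00 kb in eye libraries and 1.00 kb in both antennal libraries, and *shd*, the gene of the enzyme that makes 20-hydroxyecdysone, with 3.87, 6.67 and 3.87 kb in eye libraries and 3.87 kb in both antennal libraries. The farthest by the mean over libraries were *nvd*, an enzyme gene of hormone synthesis, and *Dronc*, a caspase gene. *nvd* owes this rank to eye disc library 1, where its 398 kb is the distance to the edge of that library's calls; it had 38.4 and 4.24 kb in eye disc libraries 2 and 3 and 34.1 and 16.7 kb in antennal disc libraries 2 and 3. *Dronc* had 100.3, 70.3 and 54.7 kb in eye libraries, against 70.3 and 65.3 kb in antennal ones.

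Between the discs, 1 of the 35 genes (*Blimp-1*, a transcriptional repressor) had a narrower host TAD in the eye disc with library ranges apart, and 12 had one in the antennal disc. The background was 6.58% and 10.6% of protein-coding genes. The 12 are not independent, since *phtm* and *Cyp18a1*, *Eip63E* and *ImpE2*, and *hid* and *rpr* share a TAD in some or all libraries. For *usp*, *Hr78*, *Eip63E*, *ImpE2*, *ImpE3* and *chinmo* the ranges were apart by only 1 bin. In *usp*, the lowest eye width was 70 kb and the highest antennal width 65 kb. *phtm*, a gene of hormone synthesis, and *Cyp18a1*, whose enzyme inactivates the hormone, lay together in TADs of 135, 130 and 195 kb in eye libraries, against 55 kb in both antennal libraries. These pairs and the genes 1 bin apart were named after their values were seen. Nearer to a border with ranges apart were 1 of 35 in the eye disc (*E23*, a transporter gene that had a border inside in each eye library and in no antennal one) and 5 of 35 in the antennal disc, beside 5.14% and 7.43% of protein-coding genes. No test over the list was made. None of the 7 ecdysone response genes had a host TAD whose width kept the discs apart in the 5 libraries.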

How the data were processed

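The authors deposited lists of TADs, for each library and for the pooled replicates of each tissue, as chromosome, start and end in bp, with no score or contact count. The submitters' processing notes name Bowtie2 2.3.4.2 and the build dm6. Which program called the TADs, and at what bin size, is not given in the sources used here. All positions are multiples of 5000 bp, which was taken as the bin.

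Each TAD start and end counted as a border, and an end within 1 bin of the following start was merged with it at their midpoint. A border was inside a gene when it lay between its ends. Gene extents were those of RefSeq (Release 6); 13672 protein-coding genes had a border and a host TAD in all 5 libraries. Differences between discs were tested by exact two-sided permutation (10 ways to assign the libraries, p as the doubled smaller tail), and "ranges apart" means that every library of a disc lay on the same side of every library of the other. Named genes were the 7, their nearest neighbours on each side, up to 5 genes sharing their TAD in every library, the genes most alike in borders inside, and the extremes of the pathway list; others are marked in the text. The genes and lists were chosen with earlier results of these data known. Code was tested on simulated data. Sequences are not shown here. Alternatives covered the border definition, the gene end, the gene margin, pooled lists, the replicate number and each library; the host TAD width was added to them after seeing the data. Python 3.11.15, numpy 2.4.6, pandas 2.3.3 and matplotlib 3.10.9 were used.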

Additional observations from a re-analysis of the deposited data

How the results depend on the processing

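The number of genes cut in every library was 4, and 3 without borders within 1 bin of a gene end. It was 4 to 5 when each library was left out in turn. The share of protein-coding genes cut in every library was not recomputed for these alternatives. The number in 1 TAD was 2 under every alternative run for it. The genes nearer to a border with ranges apart numbered 0 for eye discs and 1 for antennal discs, and 0 to 1 and 1 to 2 when each library was left out in turn. The highest values came without eye disc library 1. Differences within the libraries that share the numbers 2 and 3 (replicate block) gave 2 genes nearer to a border in eye discs and 2 in antennal discs. This rule is looser, as it asks only that both pairs differ in the same direction. The share of all protein-coding genes under it was not computed, so these counts have no background beside them. Across 13672 protein-coding genes, deviations of same-numbered libraries had a correlation of 0.0605, and the labels do not say that the numbers pair the samples.

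The difference in border distance, eye minus antennal disc, changed sign for 3 genes. For *Eip75B* it was 2.92 kb, and −2.5 kb by the nearer gene end, in the pooled lists, in the replicate block and without eye disc library 1 (range −2.5 to 6.25 kb over the libraries left out). For *br* it was −5.75 kb, and 32.5 kb in the pooled lists and 0.0655 kb in the replicate block (range −8.68 to 0.0655 kb). For *Eip93F* it was −11.9 kb, and 16.0 kb with only borders shared by adjoining TADs, which drops the edge next to the stretch without a TAD. The host width of *br* differed by −37.5 kb in the libraries, by 115 kb in the pooled lists, and by 0 kb without eye disc library 1 and in the replicate block, so the first value rests on that library. The cause of the other changes was not tested. The remaining 180 of 189 differences kept their sign or were 0 in either setting. Depth is unknown and 5 libraries limit every comparison.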

Other observations

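Genes with a like number of borders inside were sought among protein-coding genes of 0.5 to 2 times the length, by the summed difference over 5 libraries. For *EcR*, 33 of 412 such genes (8.01%) also had 1 border in every library, and *mtd* and *pros* were the closest in length. For *Eip78C* 54 of 847 (6.38%) did, with *CASK* and *baz* closest. *br* shared its 1, 0 and 1 in the eye disc and 1 and 1 in the antennal disc with 3 of 352 genes, among them *shep* and *dpy*. *Eip74EF* had no match among 572 genes, *axo* and *CG33158* differing by 2 borders in all, and *Eip75B* none among 233, *sick* and *axo* differing by 1. The number for *Eip74EF* counts its left border, which in 4 libraries lies 1.33 kb inside the gene end, closer than a bin. Having no border inside, as *Eip93F* and *ftz-f1* did, was shared by 47.8% of 533 and 50.5% of 689 genes, *wb* and *SK*, and *pHCl-1* and *ab*, being closest in length.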
